A study of Mus musculus with 12 samples.

Results

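The 236 genes described here encode 4 large machines that nearly every cell runs: the cytosolic ribosome, the mitochondrial ribosome, the proteasome and complex I of the respiratory chain. They were chosen by symbol among 20661 protein-coding RefSeq genes on chromosomes 1 to 19 of the mouse assembly GRCm38.p6, which mm10 names. Taken were Rpl or Rps with digits, without the Rps6k kinases, Mrpl or Mrps with digits, Psma, Psmb, Psmc or Psmd with digits, and every symbol that starts with Nduf. The rule gave 76 genes of the cytosolic ribosome, 75 of the mitochondrial ribosome, 38 of the proteasome and 47 of complex I. It used symbols and no measured value, but it was set with earlier results of these data known. The measurements were peaks of H3K36ac, acetylated lysine 36 of histone H3, from chromatin immunoprecipitation and sequencing of mouse liver tumours. LysM-Cre tumours (n = 3) came from mice with Cre recombinase under the lysozyme M promoter, which is active in macrophages and neutrophils, and Trem2-MKO tumours (n = 3) from mice labelled as lacking Trem2, a lipid-sensing receptor gene of macrophages; the labels do not spell out MKO. All mice of both groups had received anti-PD-1, an antibody against an inhibitory receptor of T cells, so that no untreated tumour was compared. Age, sex, strain and tumour model are not given in the sources used here. Chromatin was from whole tumour, so fewer cells of a type and less mark per cell cannot be told apart.

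Cytosolic ribosomes translate nuclear messages, mitochondrial ribosomes translate the few messages of the mitochondrial genome, the proteasome degrades ubiquitin-tagged proteins, and complex I passes electrons from NADH to ubiquinone. Most of their genes are transcribed in all cells, many from CpG-rich promoters, and hepatocytes use all 4 machines heavily. H3K36ac is known mainly from promoters of transcribed genes, which makes these genes a useful reading of how far a peak list follows active promoters.

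Promoter sequences, from the RefSeq promoter table of GRCm38.p6, are shown for the 5 members in which peaks of more than 1 library lay together within 1 kb of a known start, to show the promoter beside the repeated peaks. The summits lie downstream of the printed span in Psmd1 and Ndufv1 and upstream of it in Ndufb3. In Mrpl39 only the summit of LysM-Cre replicate 2 lies inside the span, and in Mrps5 only that of LysM-Cre replicate 3. Each printed sequence runs 5′ to 3′ on the gene's strand from 250 bases before the start to 20 bases after it. Capitals mark where letters of known promoter motifs were found on either strand. The search used TATAAA for the core box bound by the basal machinery, CCAAT for the factor NF-Y and GGGCGG for the GC box of Sp factors. It used CCGGAAG for ETS factors, AAGATGGCG for YY1 and, for NRF1, the letters GCGCA joined to their reverse complement. A match is a match of letters only. The promoter of Psmd1, a scaffold subunit of the proteasome's regulatory particle, is chr1:86064369-86064638 on the plus strand.
Psmd1: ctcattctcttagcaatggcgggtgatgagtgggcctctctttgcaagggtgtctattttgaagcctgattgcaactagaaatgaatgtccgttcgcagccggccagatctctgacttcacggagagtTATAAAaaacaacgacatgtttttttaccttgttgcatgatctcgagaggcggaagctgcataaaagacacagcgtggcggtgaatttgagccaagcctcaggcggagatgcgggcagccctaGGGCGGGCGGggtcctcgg
The promoter of Mrpl39, a protein of the large mitochondrial ribosomal subunit, is chr16:84735225-84735494 on the minus strand.
Mrpl39: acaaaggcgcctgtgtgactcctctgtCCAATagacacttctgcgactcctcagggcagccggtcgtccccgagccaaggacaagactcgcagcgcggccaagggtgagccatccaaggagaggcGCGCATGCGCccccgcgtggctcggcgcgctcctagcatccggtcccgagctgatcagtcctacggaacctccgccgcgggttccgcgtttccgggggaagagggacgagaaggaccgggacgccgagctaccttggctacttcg
The promoter of Mrps5, a protein of the small mitochondrial ribosomal subunit, is chr2:127587176-127587445 on the plus strand.
Mrps5: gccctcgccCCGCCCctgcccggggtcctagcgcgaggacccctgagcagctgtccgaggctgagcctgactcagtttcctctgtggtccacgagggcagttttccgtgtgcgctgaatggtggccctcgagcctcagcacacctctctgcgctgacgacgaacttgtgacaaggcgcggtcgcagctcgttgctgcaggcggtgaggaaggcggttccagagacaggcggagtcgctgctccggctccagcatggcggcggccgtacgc
The promoter of Ndufb3, an accessory subunit of complex I, is chr1:58586147-58586416 on the plus strand.
Ndufb3: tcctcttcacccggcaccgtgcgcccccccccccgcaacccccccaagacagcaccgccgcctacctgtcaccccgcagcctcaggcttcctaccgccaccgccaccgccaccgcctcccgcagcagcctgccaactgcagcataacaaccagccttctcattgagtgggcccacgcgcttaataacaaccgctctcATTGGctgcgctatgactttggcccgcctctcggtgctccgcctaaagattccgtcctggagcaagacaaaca
The promoter of Ndufv1, the NADH-binding subunit of complex I, is chr19:4012736-4013005 on the minus strand.
Ndufv1: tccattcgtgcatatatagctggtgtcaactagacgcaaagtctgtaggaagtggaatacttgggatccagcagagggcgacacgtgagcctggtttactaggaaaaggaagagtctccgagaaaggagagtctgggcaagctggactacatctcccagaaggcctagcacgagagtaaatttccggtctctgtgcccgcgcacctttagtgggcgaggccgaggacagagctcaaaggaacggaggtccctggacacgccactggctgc
In Psmd1 the capitals are TATA box letters and, after the start, GC box letters. No set distance from the start was required of a match. In Mrpl39 they are an NF-Y and an NRF1 match, in Mrps5 GC box letters and in Ndufb3 an NF-Y match. Ndufv1 held none of the 6 motifs. Rpl23a and Mrps35 also had peaks of more than 1 library over a single place, and for them no sequence is printed.

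The deposited lists, taken in replicate order here and below, held 18262, 29970 and 19981 peaks for the LysM-Cre tumours. Those of the Trem2-MKO tumours held 29906, 6840 and 4638. Peaks were weak everywhere, with a median fold over local background of 2.63 to 3.25 by the authors' caller, and 9.47% to 17.1% of a list had a q-value of 0.01 or less. Trem2-MKO replicates 2 and 3 stood apart: their lists were the shortest, their median summit held 20 and 23 fragments against 11 in the remaining 4, and their pileups had been scaled by 0.903 and 0.798. Every genotype difference below therefore rests in part on these libraries, and the value of each library is given beside it. As a check of the labelled tissue, 4 of 16 hepatocyte markers had a gene-end peak in any library (Fgg, Hnf4a, Hpx and Afp), with none at Alb or Apoa1, where 17.5% of all genes had one. Macrophage markers had one at 5 of 15 genes (3 marks from LysM-Cre libraries, 4 from Trem2-MKO) and T and NK cell markers at 3 of 14 (4 marks, all from LysM-Cre libraries). Of all genes, 10.8% were marked in LysM-Cre libraries alone and 5.62% in Trem2-MKO libraries alone. At these list sizes the counts tell little of the tissue, and the part of these cell types in the results was not tested.

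Genes of the 4 machines carried gene-end peaks somewhat more often than other genes in all 3 LysM-Cre tumours, and not in Trem2-MKO tumours. A gene is called marked in a library when a peak overlaps, by 1 bp or more, the 1 kb on either side of one of its annotated ends. In LysM-Cre, 15, 16 and 16 of 236 members were marked, or 6.36%, 6.78% and 6.78%, where 3.47%, 5.12% and 4.41% of all genes were. In Trem2-MKO, 10, 3 and 1 members were marked, or 4.24%, 1.27% and 0.424%, where 4.6%, 1.64% and 0.741% of all genes were. In every tumour most of these genes had no gene-end peak at all.

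**Figure D1:**
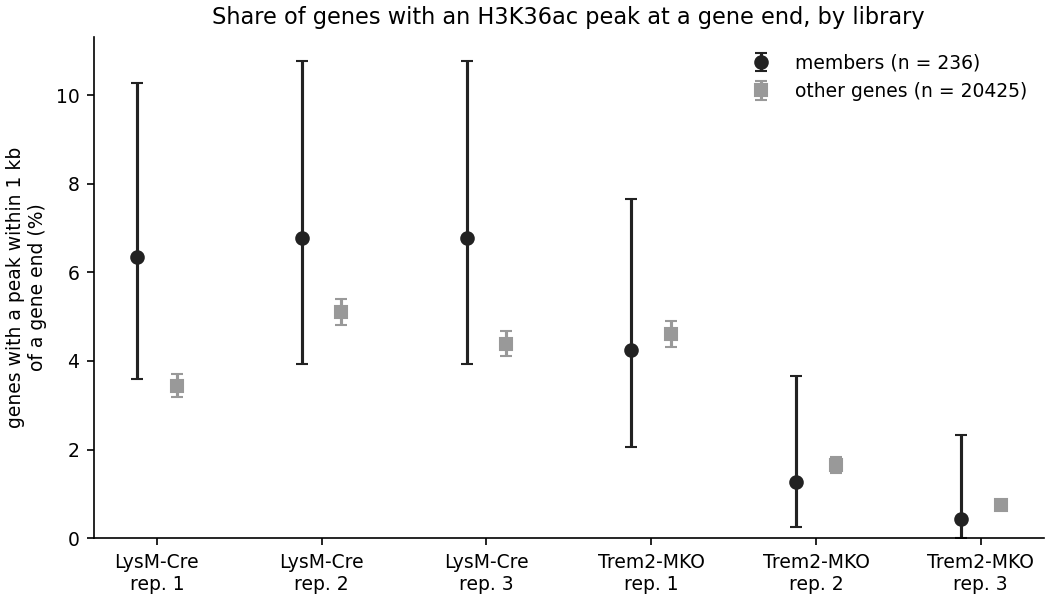
Share of genes (%) with an H3K36ac peak within 1 kb of a gene end, per library, for the 236 members (circles) and the 20425 other genes (squares); bars are 95% Clopper-Pearson intervals, which cover counting error only. The circle lies above the square in the 3 LysM-Cre libraries, by 1.68 to 2.92 percentage points, and below it in the 3 Trem2-MKO libraries, by less than the width of the member intervals.

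Set against the other genes of the same library, members stood 2.92, 1.68 and 2.40 percentage points higher in the 3 LysM-Cre tumours (mean 2.33 ± 0.621, SD, n = 3). In Trem2-MKO the differences were -0.370, -0.369 and -0.320 points (mean -0.353 ± 0.0283, SD, n = 3). Each is smaller than the 0.424 points that 1 of 236 members makes up, and the SD does not cover counting error. The member share itself was 6.64 ± 0.245% in LysM-Cre against 4.31 ± 0.833% of other genes, and 1.98 ± 2.0% against 2.33 ± 2.02% in Trem2-MKO. The 2 genotypes' differences did not overlap, and their means lay 2.69 points apart. With Trem2-MKO replicates 2 and 3 left out the distance was 2.70, and with the 4638 strongest peaks of every list it was 1.32. With peaks of a −log10 q of 2 or more the distance was 1.17, and with peaks of a −log10 p of 5 or more it was 0.818. At that p limit the genotypes overlapped, since LysM-Cre replicate 3 stood at 0.00359 points, below Trem2-MKO replicate 1 at 0.449. The counts are small: the 95% interval of the member share was 3.60% to 10.3% in LysM-Cre replicate 1, just above the 3.44% of other genes, and 3.92% to 10.8% in replicates 2 and 3, which includes their 5.10% and 4.38%. In Trem2-MKO the intervals were 2.05% to 7.65%, 0.263% to 3.67% and 0.0107% to 2.34%. Each includes the share of other genes there, 4.61%, 1.64% and 0.744%. No p-value was computed for a score over chosen genes.

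Over all 6 libraries, 48 members (20.3%) had a gene-end peak in at least 1 library, where 17.5% of all genes had, and 188 had none. In 2 or more libraries 11 members were marked (4.66%), where 2.29% of all genes were, and in 3 libraries 2 were (0.847%), where 0.213% of all genes were marked in 3 or more. None was marked in 4 or more. By genotype, 35 members were marked in LysM-Cre alone (10.8% of all genes were), 8 in Trem2-MKO alone (5.62% of all genes) and 5 in both. The 61 gene-library marks came from 63 distinct peaks, of which 18 (28.6%) had a q-value of 0.01 or less. Of these peaks 19 (30.2%) also lay within 1 kb of an end of another gene, so they cannot be given to the member alone: 57.2% of members, but 32.9% of other genes, have windows that overlap a neighbour's.

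**Figure D2:**
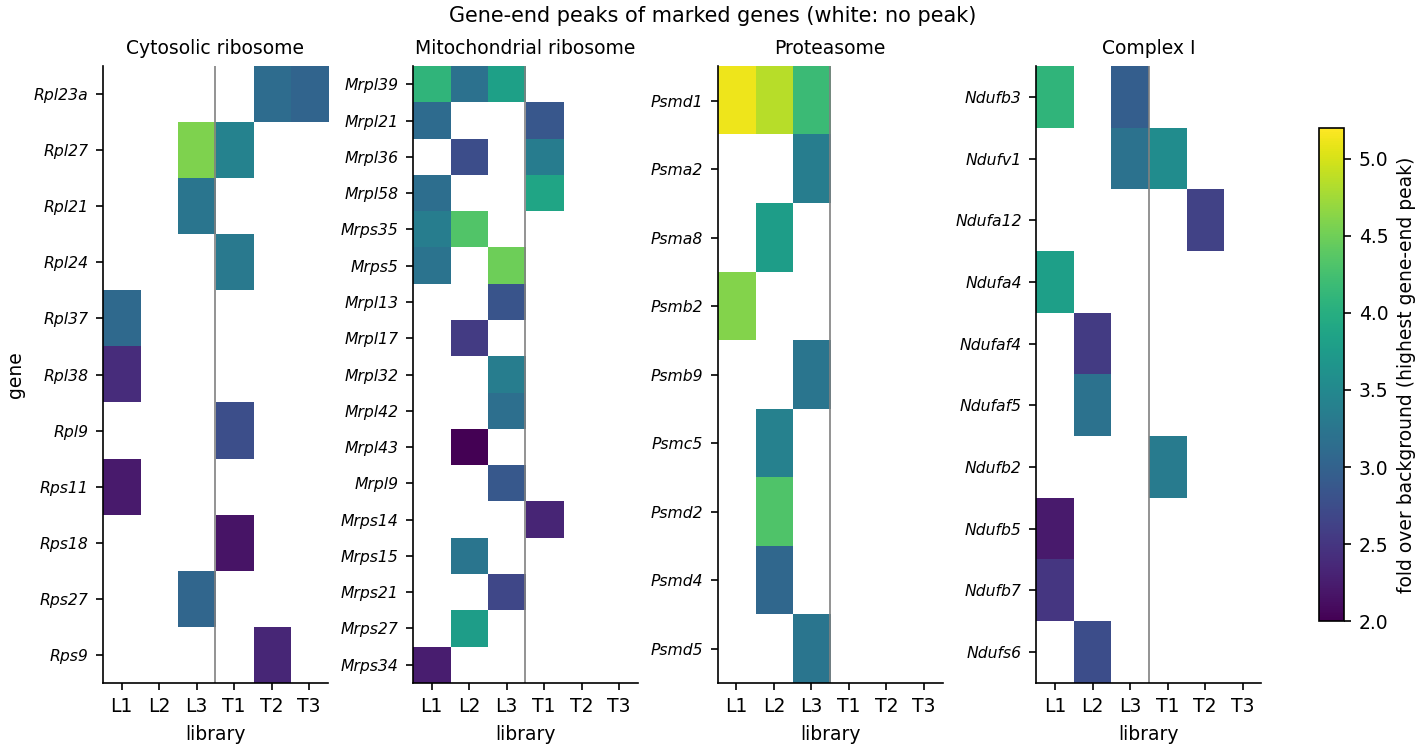
Authors' fold over local background of the highest gene-end peak of the marked members (rows; 1 member is not shown) in LysM-Cre replicates 1 to 3 (L1 to L3) and Trem2-MKO replicates 1 to 3 (T1 to T3), by machine; white is no peak. Psmd1 and Mrpl39 are filled in all 3 LysM-Cre columns, the Trem2-MKO columns of the proteasome are empty, and those of the cytosolic ribosome are not.

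Psmd1 was the member marked most strongly and most repeatably. Its gene spans chromosome 1, 86064619 to 86139295, on the plus strand, and all 3 LysM-Cre peaks had their summits just inside its start. The peak of LysM-Cre replicate 1 covered 86064063 to 86065079 with its summit 166 bp after the start, and held 22 fragments where 3.49 were expected, a fold of 5.12. Replicate 2 had its summit at 290 bp with 22 fragments against 3.73, a fold of 4.86. Replicate 3 had its summit at 216 bp with 20 fragments against 4.03, a fold of 4.18. The 3 summits fell within 124 bp of each other, downstream of the TATA and GC box letters shown above. No Trem2-MKO library had a peak at either end of Psmd1. Replicates 2 and 3 of Trem2-MKO did have body peaks 34616 and 48273 bp into the gene, with folds of 2.12 and 2.34, and LysM-Cre replicates 2 and 3 had one each, 54166 and 69303 bp in.

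Mrpl39 (chromosome 16, 84718281 to 84735244, minus strand) was the other member marked in every LysM-Cre library and no Trem2-MKO library. LysM-Cre replicates 2 and 3 had overlapping peaks over the start, with summits at 5 and 98 bp, 26 and 27 fragments, and folds of 3.19 and 3.82. The peak of replicate 1 was a different one: its summit lay 1152 bp after the start, with 13 fragments and a fold of 4.10, and only its edge reached the window. Mrpl39 is therefore a gene with start peaks in 2 LysM-Cre tumours and a separate peak nearby in the other, and it lost its call when windows of 500 bp were used or when the summit had to lie inside the window. Psmd1 kept its call under every alternative run.

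The call of 3 of 3 libraries against 0 of 3 was met by these 2 members in the LysM-Cre direction, where 12 of all genes (0.0581%) met it. In the Trem2-MKO direction 0 members met it, where 4 of all genes (0.0194%) did. For a single gene this pattern gives a two-sided Fisher's exact p of 0.1, the smallest that 3 against 3 libraries allow, so no gene passed a threshold of 0.05 and the 0 in the Trem2-MKO direction could not have passed it either. Psmd1 and Mrpl39 were already known from the earlier analysis of the same lists and are given as description. Without LysM-Cre replicate 2, Ndufb3 and Mrps5 joined them (4 members), where 72 of all genes (0.348%) met the call in the LysM-Cre direction. Without LysM-Cre replicate 3, Mrps35 joined Psmd1 and Mrpl39 (3 members), where 62 of all genes (0.300%) met it. Without Trem2-MKO replicate 1, Rpl23a met the call in the Trem2-MKO direction (3 in all), where 15 of all genes (0.0726%) did.

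Of the other members marked in 2 libraries, Mrps35, Mrps5, Ndufb3, Rpl23a and Ndufv1 had both peaks over a single place. Mrps35, of the small mitochondrial ribosomal subunit (chromosome 6, 147042728 to 147070906), had overlapping peaks at its lower-coordinate end in LysM-Cre replicate 1 (18 fragments, fold 3.36) and replicate 2 (26 fragments, fold 4.34), with summits 11 bp apart. Mrps5 had peaks with summits 341 bp before its start in LysM-Cre replicate 1 (fold 3.22) and 53 bp before it in replicate 3 (19 fragments, fold 4.49). Both peaks overlapped the promoter printed above and also lay within 1 kb of Zfp661, a zinc-finger gene. Ndufb3 had summits 416 and 447 bp before its start in LysM-Cre replicates 1 and 3, with folds of 4.10 and 2.95, between it and Fam126b. The same libraries shared a second, stronger site in the body of Ndufb3, 3614 and 3775 bp after the start, with folds of 5.27 and 4.13.

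Rpl23a, a protein of the large cytosolic ribosomal subunit (chromosome 11, 78180935 to 78183584), was the only recurrent member marked in Trem2-MKO alone. Its peaks lay at the higher-coordinate end, with 26 fragments and a fold of 3.14 in Trem2-MKO replicate 2 and 29 fragments and a fold of 3.03 in replicate 3, and summits 37 bp apart. These are the 2 libraries with the deepest summits and the shortest lists, and neither Trem2-MKO replicate 1 nor any LysM-Cre library had a peak there. Ndufv1 was marked at its start in both genotypes. Its summits lay at 79 bp in LysM-Cre replicate 3 (fold 3.21) and at 52 bp in Trem2-MKO replicate 1 (fold 3.55), and 0 peaks were called in the other 4 libraries.

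**Figure D3:**
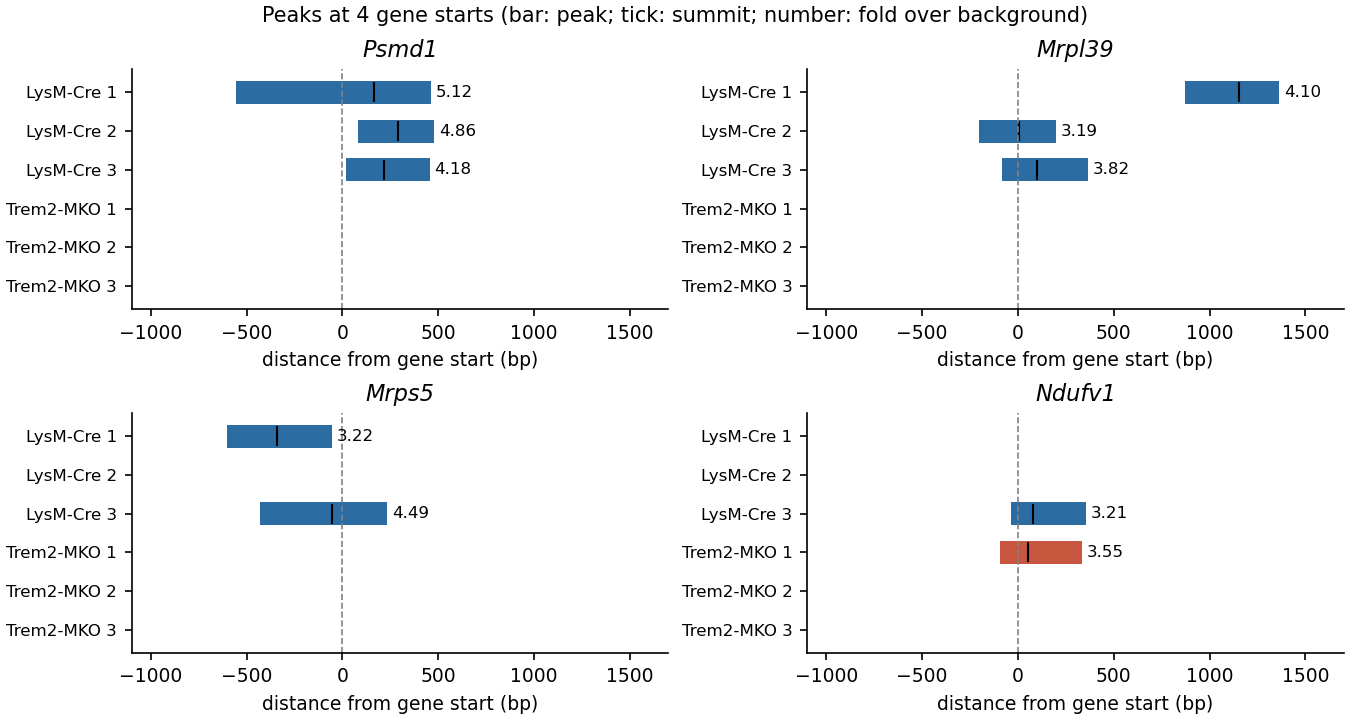
Peaks (bars) and summits (ticks) of the 6 libraries around the starts of Psmd1, Mrpl39, Mrps5 and Ndufv1, as distance from the gene start in bp along the gene's strand; numbers are the authors' fold over background. The 3 Psmd1 summits lie between 166 and 290 bp, the LysM-Cre replicate 1 peak of Mrpl39 lies apart from the other 2, and only Ndufv1 has a Trem2-MKO peak.

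The remaining 4 recurrent members were marked at a different end in each genotype, so that their recurrence is of the gene and not of a place. Rpl27, of the cytosolic large subunit, had a LysM-Cre replicate 3 peak 431 bp after its start (fold 4.59) and a Trem2-MKO replicate 1 peak at its far end (fold 3.42). Mrpl58, a peptidyl-tRNA hydrolase built into the mitochondrial ribosome, had its start marked in LysM-Cre replicate 1 (fold 3.15) and its far end in Trem2-MKO replicate 1 (fold 3.88). Mrpl21 had a peak 212 bp before its start, shared with Ighmbp2, in LysM-Cre replicate 1 (fold 3.12) and one at its far end in Trem2-MKO replicate 1 (fold 2.87). Mrpl36 had one 127 bp before its start in LysM-Cre replicate 2 (fold 2.76), shared with Ndufs6 of complex I, and one toward its far end in Trem2-MKO replicate 1 (fold 3.35), which also touched a second promoter listed for Mrpl36. In each of the 4 the LysM-Cre peak was the one at the start.

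Start and far-end marks were then counted over the members as a group. Strand, and hence the start, was known for 194 of 236 members and 16456 of all genes. The start is the outermost annotated end of the gene on its strand. It can differ from the start of the listed promoter, as in Psmd2 and Psmc2, and the peak over the listed promoter of Psmc2 is not counted as a start mark. In LysM-Cre, the starts of 7, 12 and 13 of 194 members were marked, or 3.61%, 6.19% and 6.70%, where 1.78%, 2.73% and 2.59% of all genes with a known start were. In Trem2-MKO, 2, 1 and 0 starts were marked, or 1.03%, 0.515% and 0% (a count of 0 of 194 allows up to 1.55%), where 2.16%, 1.03% and 0.438% of all genes were. Far ends were marked in 4, 2 and 2 members in LysM-Cre and in 8, 1 and 0 in Trem2-MKO.

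LysM-Cre tumours thus held 32 start marks and 8 far-end marks of members, where other genes had 1137 and 1049. Trem2-MKO tumours held 3 start marks and 9 far-end marks, where other genes had 593 of each, and 8 of the 9 came from replicate 1. The mean start share of members was 5.50 ± 1.66% in LysM-Cre (SD, n = 3) against 2.33 ± 0.501% of other genes, and the far-end share was 1.37 ± 0.595% against 2.15 ± 0.478%. In Trem2-MKO the start share was 0.515 ± 0.515% against 1.22 ± 0.878%, and the far-end share 1.55 ± 2.25% against 1.22 ± 1.20%. The excess of members in LysM-Cre was thus at starts. Their far ends were marked in 2.06%, 1.03% and 1.03%, where those of other genes were in 1.77%, 2.69% and 1.99%, so members were higher in 1 of 3 libraries. Over all libraries, 28 members (14.4%) had a marked start, where 9.56% of all genes had, and 17 (8.76%) a marked far end, where 9.27% had. With both genotypes pooled, start marks made up 67.3% of the members' marks (35 start marks at 28 members) and 51.3% of those of other genes. No interval is given for these shares, since a gene can count in several libraries and its marks are not independent.

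**Figure D4:**
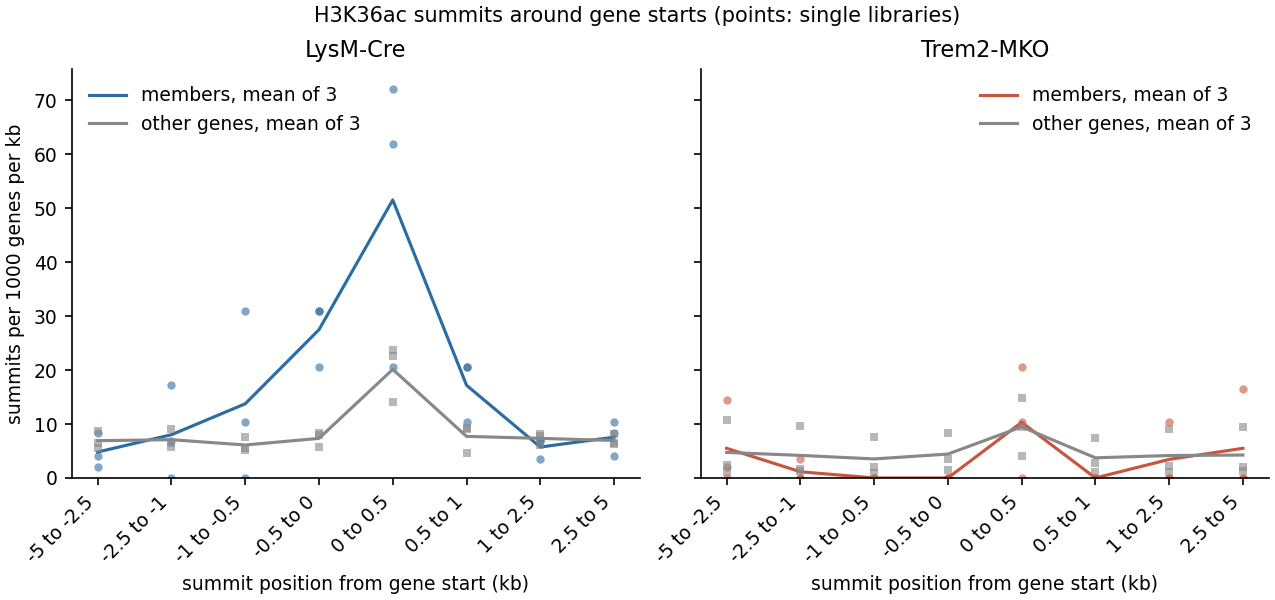
Summits per 1000 genes and kb in bins of distance from the gene start (kb, downstream positive) for members (194, coloured) and other genes (16262, grey); points are single libraries and lines are means of 3. In LysM-Cre the line of member means is highest in the first 0.5 kb after the start, where the libraries lie at 20.6, 72.2 and 61.9 against 14.0 to 23.7 for other genes, and the Trem2-MKO member points there lie at 20.6, 10.3 and 0.

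Member summits were most frequent just downstream of the start in LysM-Cre replicates 2 and 3, and just upstream of it in replicate 1. In the first 500 bp after it, the LysM-Cre tumours had 2, 7 and 6 member summits, which is 20.6, 72.2 and 61.9 per 1000 genes and kb, where other genes had 14.0, 22.6 and 23.7. In the 500 bp before the start the members had 3, 2 and 3 (30.9, 20.6 and 30.9 per 1000 genes and kb). In Trem2-MKO the first 500 bp held 2, 1 and 0 member summits (20.6, 10.3 and 0 per 1000 genes and kb against 14.9, 9.47 and 4.06), and the 500 bp before the start held none. Other genes had their highest bin in the same place in every library of both genotypes.

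Members' peaks were more frequent in LysM-Cre, at folds like those of other genes. Merged gene-end windows of members (0.915 Mb) held 17.5, 17.5 and 18.6 peaks per Mb in LysM-Cre, where those of other genes (74.1 Mb) held 8.78, 13.4 and 11.5. In Trem2-MKO they held 10.9, 3.28 and 1.09, against 12.1, 4.24 and 1.98. The median fold of these peaks was 3.13, 3.24 and 3.21 in members and 3.22, 2.97 and 3.21 in other genes of LysM-Cre. The highest member folds, 5.12, 4.86 and 4.59, stayed under the highest of other genes, 5.68, 7.27 and 6.63.

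Genes of the cytosolic ribosome were marked about as often as other genes. They are among the most highly transcribed of any cell, yet 3, 1 and 3 of 76 were marked in the LysM-Cre tumours. In Trem2-MKO 4, 2 and 1 were. Against all remaining genes this was -1.27 ± 2.26 percentage points in LysM-Cre and 0.746 ± 0.223 in Trem2-MKO (SD, n = 3), above the rest in 1 of 3 and 3 of 3 libraries. The mean over all 6, -0.260 points, turned to 0.451 without LysM-Cre replicate 2 and to 0.231 when the summit had to lie inside the window, so no direction can be given. In any library 12 genes (15.8%) were marked: 7 of 46 Rpl and 5 of 30 Rps genes. Beside Rpl23a and Rpl27 these included Rps27, of the small subunit, with 3 weak peaks around its short gene in LysM-Cre replicate 3 alone (folds 2.30 to 3.06). Rpl24, of the large subunit, was marked 379 bp after its start in Trem2-MKO replicate 1 (fold 3.29) and Rps9 339 bp after its start in Trem2-MKO replicate 2 (fold 2.34).

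Mitochondrial ribosome genes were marked more often than other genes in all 3 LysM-Cre tumours. In LysM-Cre 6, 7 and 7 of 75 were marked, 4.57 ± 0.355 percentage points above all remaining genes. The SD does not cover counting error. Clopper-Pearson intervals of these shares were 2.99% to 16.6%, 3.84% to 18.3% and 3.84% to 18.3%. Each includes the share of all genes there, 3.47%, 5.12% and 4.41%. With 2.5 kb windows the 3 differences spread to 1.23, 10.2 and 5.09 points, and with peaks of a −log10 p of 5 or more they shrank to 2.39, 1.99 and 1.89. In Trem2-MKO 4, 0 and 0 were marked, a difference of -0.551 ± 1.20 points, where a count of 0 of 75 allows a share of up to 4%. The mean over all 6 libraries, 2.01, became 1.05 at this p limit, 0.994 with peaks of a −log10 q of 2 or more and 0.731 with the 4638 strongest peaks. In any library 17 genes (22.7%) were marked, 10 of 49 Mrpl and 7 of 26 Mrps genes, and 6 of the 11 recurrent members belong here. Mrps27, a protein of the small subunit, had a peak 833 bp before its start in LysM-Cre replicate 2 (fold 3.78), between it and Ptcd2. Mrpl9 had one 534 bp after its start in LysM-Cre replicate 3 with 20 fragments and a fold of 2.88.

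All marks of the proteasome were in LysM-Cre. There 2, 5 and 4 of 38 genes were marked, 5.33 ± 3.21 points above all remaining genes, and in Trem2-MKO 0 of 38 in each library, which allows a share of up to 7.89% per library, more than the 4.6% of all genes marked in replicate 1. Clopper-Pearson intervals of the LysM-Cre shares were 0.644% to 17.7%, 4.41% to 28.1% and 2.94% to 24.8%. Each includes the share of all genes there, 3.47%, 5.12% and 4.41%. The difference between the genotypes was 7.66 points and was not tested. Of the 9 marked genes (23.7%), 4 encode the 20S core and 5 the 19S regulatory particle. Psmd2, like Psmd1 a scaffold subunit of the 19S particle, was marked 642 bp after its outermost annotated end in LysM-Cre replicate 2 (15 fragments, fold 4.32). That peak overlapped 175 bp of the promoter listed for Psmd2, whose start lies further into the gene. Psmd4, a ubiquitin receptor of the 19S particle, was marked 339 bp after its start in the same library (fold 3.06). Psmb2, a core subunit, was marked in LysM-Cre replicate 1 (17 fragments, fold 4.60). Psma2, an outer-ring core subunit, was marked 356 bp after its start in replicate 3 (fold 3.35) by a peak that Mrpl32 shares. Psmc5, an ATPase of the 19S particle, was marked at its far end in LysM-Cre replicate 2 (fold 3.40) and had a body peak in Trem2-MKO replicate 1 (fold 3.99), so Trem2-MKO tumours did have peaks within proteasome genes.

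Genes of complex I lay above the rest in LysM-Cre replicates 1 and 2 and level with it in replicate 3. In LysM-Cre 4, 3 and 2 of 47 genes were marked, 2.06 ± 2.69 points above all remaining genes, and 2, 1 and 0 in Trem2-MKO, a difference of -0.199 ± 0.631. Clopper-Pearson intervals of the LysM-Cre shares were 2.37% to 20.4%, 1.34% to 17.5% and 0.520% to 14.5%. Each includes the share of all genes there, 3.47%, 5.12% and 4.41%. The mean over all 6 libraries, 0.928, turned to -0.340 with peaks of a −log10 p of 5 or more, to -0.434 with those of a −log10 q of 2 or more and to -1.05 without genes that share a window with a neighbour. In any library 10 genes (21.3%) were marked, 8 of 39 subunits and 2 of 8 assembly factors. Ndufaf5, an assembly factor, was marked 339 bp after its start in LysM-Cre replicate 2 (fold 3.21) near Esf1, and Ndufaf4, another, 52 bp after its start in the same library (fold 2.55). Ndufa4, long counted with complex I and now placed in complex IV, was marked at its far end in LysM-Cre replicate 1 (fold 3.80).

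**Figure D5:**
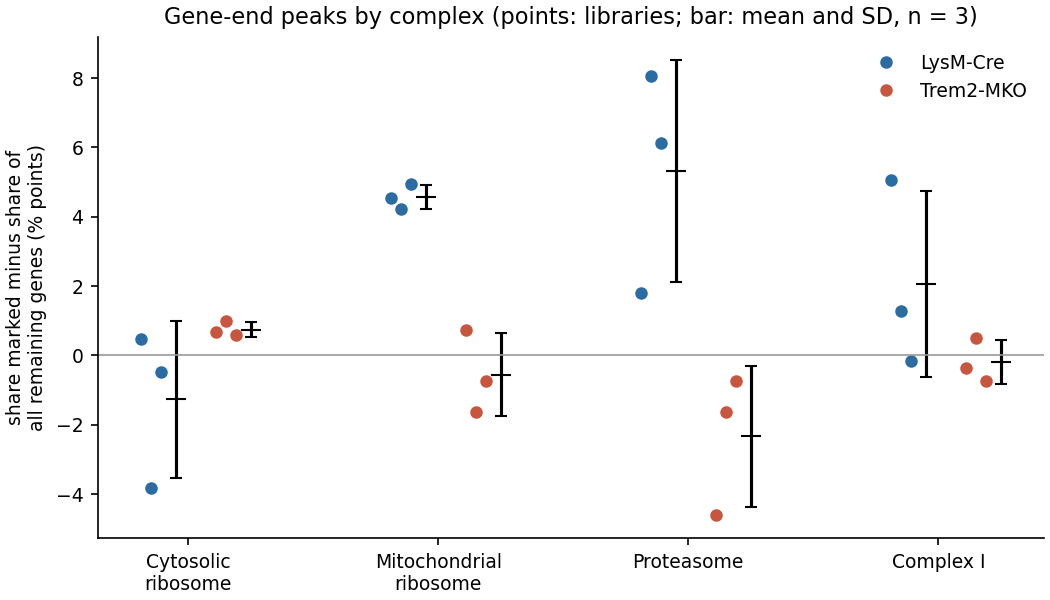
Share of genes with a gene-end peak minus the share among all remaining genes (percentage points) for the 4 machines. Points are libraries. Bars are mean and SD (n = 3), which do not cover counting error. The mitochondrial ribosome points of LysM-Cre lie together near 4.57, those of the proteasome spread around 5.33, and the cytosolic ribosome alone has its Trem2-MKO points above its LysM-Cre mean.

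Some members are known to be silent or low in most tissues. They were Rpl10l, Rpl39l, Rpl3l, Psma8, Psmb11 and Ndufa4l2, of which the first 2 and Psma8 are known from testis, Rpl3l from muscle and Psmb11 from thymus, together with the immunoproteasome subunits Psmb8, Psmb9 and Psmb10. Of these 9, chosen for their known expression, Psma8 was marked in LysM-Cre replicate 2 at both ends (folds 3.24 and 3.78) and Psmb9 in LysM-Cre replicate 3. These 2 of 9 stand beside 17.5% of all genes. The other 7 had no peak at their ends or in their bodies in any library, where 31.8% of members and 51.5% of all genes had a body peak. These 7 genes are short, and body peaks depend on gene length. No share of genes of like length was set beside them, so the absence cannot be read as a trait of silent genes. For families outside the 4 machines, 14.4% of 1100 Olfr genes (olfactory receptors, mostly silent in liver) and 18.6% of 360 Zfp genes (zinc-finger proteins) were marked in any library, beside 20.3% of members. Olfr genes stood -1.31 ± 1.26 points from the rest in LysM-Cre and -0.185 ± 0.741 in Trem2-MKO (SD, n = 3).

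Peaks within gene bodies did not set the members apart when all peaks of a list were counted. A peak overlapped the body of 18, 30 and 22 members in LysM-Cre, where 20.6%, 27.6% and 21.9% of all genes had one (7.63%, 12.7% and 9.32% of members). In Trem2-MKO 30, 7 and 4 members had one (12.7%, 2.97% and 1.69%), where 28.4%, 10.3% and 6.16% of all genes did. Over any library it was 75 members (31.8%) and 51.5% of all genes. Members are short, with a median length of 5.67 kb against 17.7 kb, and per Mb the difference was gone. Merged member bodies (2.69 Mb) held 7.44, 13.0 and 8.93 peaks per Mb in LysM-Cre and 13.8, 2.60 and 1.49 in Trem2-MKO. Bodies of other genes held 7.56, 12.2 and 8.43 and 12.4, 2.93 and 1.68. The log2 ratio averaged 0.06 ± 0.09 (SD, n = 6), smaller than its spread. With peaks of a q-value of 0.01 or less alone the mean was 0.57, so that the nearness to 0 holds only for lists that include the weakest peaks. By library it was then 1.11, 1.23 and 0.810 in LysM-Cre and -0.339, 0.429 and 0.158 in Trem2-MKO. Body peaks include peaks that also count at a gene end, such as those at the starts of Psmd1 and Mrpl39. These values are therefore not separate from the gene-end marks, and the difference between the genotypes was not tested.

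Some members had body peaks in several libraries. Psma5, an outer-ring core subunit of the proteasome whose gene spans 23.0 kb, had a body peak in all but Trem2-MKO replicate 3; those of LysM-Cre replicate 2 and Trem2-MKO replicate 1 overlapped, with summits 15512 and 15488 bp after the start. Mrps28 (122 kb) had body peaks in 3 LysM-Cre and 1 Trem2-MKO library at separate places, and Mrpl48 (62.5 kb) in 2 of each. Ndufaf5 had overlapping body peaks near its far end in Trem2-MKO replicates 1 and 2 (folds 4.11 and 2.63). Ndufaf2 (106 kb) had 4 body peaks in Trem2-MKO replicate 1 and 1 in LysM-Cre replicate 2. By the call of 3 of 3 against 0 of 3, 1 member, Mrpl39, had body peaks in LysM-Cre alone (the peaks that also mark its start), where 0.891% of all genes did, and 0 in Trem2-MKO alone, where 0.0339% did. In all, 152 members had a peak neither at their ends nor in their bodies.

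Genes that work beside these machines were read from lists drawn up by function. Proteasome activators, assembly factors and associated enzymes were marked in 7 of 17 genes, with 6 marks from LysM-Cre and 2 from Trem2-MKO libraries; Usp14, a deubiquitinase of the proteasome, was marked in 2 LysM-Cre libraries, and Psme1 and Psme2, the interferon-induced activator subunits, in 1 Trem2-MKO and 1 LysM-Cre library. Ribosome biogenesis factors were marked in 4 of 22 genes, with 5 marks, all from LysM-Cre libraries; Polr1b, a subunit of RNA polymerase I, was marked in 2 LysM-Cre libraries. Translation factors were marked in 5 of 28 genes, with 4 and 2 marks, and Eif3e, a subunit of initiation factor 3, in 2 LysM-Cre libraries. Genes of mitochondrial translation were marked in 2 of 19, and of the other respiratory complexes in 7 of 37, with 4 marks from LysM-Cre and 3 from Trem2-MKO libraries. Of 9 ribosome genes that the name rule leaves out, such as Rplp0, only Rpl7l1 was marked, in 1 LysM-Cre library. All these shares stand beside 17.5% of all genes marked in any library. The splits by genotype stand beside 10.8% of all genes marked in LysM-Cre libraries alone and 5.62% in Trem2-MKO libraries alone, and were not tested.

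The members' promoters differ from the average in sequence. Over the 300 bases of the RefSeq table, 194 members had a median ratio of observed to expected CpG of 0.820, where all 16456 genes had 0.595, and a ratio of 0.6 or more was found in 85.6% of members and 49.3% of other genes. Among genes with such CpG-rich promoters, starts of members were marked in 4.22%, 6.63% and 7.23% in LysM-Cre, and those of other genes in 1.92%, 2.67% and 2.88%. In Trem2-MKO the values were 0.602%, 0.602% and 0% for members and 1.97%, 0.985% and 0.412% for other genes. Since CpG-rich promoters belong to 85.6% of members, these values largely repeat those of all members. With a ratio under 0.6, starts of 0, 1 and 1 of 28 members were marked in LysM-Cre and 1, 0 and 0 in Trem2-MKO. Other genes of that kind had 1.60%, 2.72% and 2.21% in LysM-Cre and 2.37%, 1.08% and 0.473% in Trem2-MKO. The part of CpG content in the difference was not tested.

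The ETS letters were found in 58 of 194 member promoters (29.9%) and in 12.2% of all promoters, the YY1 letters in 9.28% and 1.95%, and the NRF1 letters in 4.12% and 1.36%. The TATA box letters were found in 7.73% and 13.5%, the NF-Y letters in 35.1% and 38.9% and the GC box in 51.5% and 47.3%; matches of different motifs may overlap. A pyrimidine tract at the start is known from genes of the translation machinery; read as a C followed by 4 pyrimidines between 5 bases before and 10 bases after the start, it was found in 27 of 57 promoters of the cytosolic ribosome (47.4%) and in 19% of all promoters. Of the 39 members with a gene-end peak and a known promoter, 6 (15.4%) held the NRF1 letters and 6 the YY1 letters. Of the 155 without a peak, 2 (1.29%) held the NRF1 letters and 12 (7.74%) the YY1 letters. NRF1 is a factor of nuclear genes for mitochondrial proteins; these counts are small, were looked at among 7 sequence features, and were not tested. A peak of any kind overlapped the promoter, taken over the span printed above, in 18 members. They include Psmc2, which has a body peak there and no gene-end peak. No share of all promoters was set beside this count.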

How the data were processed

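H3K36ac was measured in 6 tumour libraries, 3 per genotype; the 6 inputs among the 12 samples were not analysed here. Per the submitters' processing notes, Trimmomatic, Bowtie2, SAMtools, Picard, MACS2 and deepTools were used with mm10; their versions are not given in the sources used here. From their names, the lists were made from sorted alignments freed of duplicates, by calls per library against a pooled control at a p-value limit of 0.01, capped at 500000 peaks and filtered. Per the labels' protocols, DNA was amplified genome-wide before library preparation, which can copy fragments unevenly. Each list deposited by the authors gives per peak a score, a fold over local background, a −log10 p-value and a −log10 q-value; they served to rank, filter and describe peaks of a single list. Fragments at a summit were solved as whole numbers from the fold and p-value for 100% of peaks in each library, within 0.006 on the −log10 p scale and with a fitted pileup scale in Trem2-MKO replicates 2 and 3.

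Genes and promoters came from NCBI RefSeq tables of GRCm38.p6; strand was taken from the promoter table, and the sequence shares use its first entry per gene (194 of 236 members). Exons, introns and untranslated regions were not assigned. Members and gene lists were chosen with earlier results of these data known. Genes named were those marked in 2 or more libraries or called 3 of 3 against 0 of 3, and in each subgroup the 3 with the highest −log10 p at a gene end and the 2 with body peaks in most libraries; of the lists of related genes, those marked in 2 or more libraries. One gene that this rule names is not reported here. Other genes were named after their values were seen. Body density added 0.5 to each peak count, and intervals are 95% Clopper-Pearson. Labels call the libraries replicates without tying each to its own mouse, so spreads may be technical. Gene marking and fragment recovery were tested on simulated data. Python 3.11.15, pandas 2.3.3, NumPy 2.4.6, SciPy 1.17.1 and matplotlib 3.10.9 were used. Alternatives were windows of 500 bp and 2.5 kb, peaks of a −log10 p of 5 or more or a −log10 q of 2 or more, the 4638 strongest peaks of each list, summits inside the window, symbols with final letters, genes without shared windows, and each library left out.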

Additional observations from a re-analysis of the deposited data

Results flagged for a closer look

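The share of members with a gene-end peak, set against other genes of the same library, was above 0 in all 3 LysM-Cre libraries and below 0 in all 3 Trem2-MKO libraries, with means 2.69 percentage points apart. The same held for the 38 proteasome genes, with means 7.66 points apart and 0 marks in each Trem2-MKO library. Both were picked out because every library of one genotype moved one way and every library of the other the opposite way, and neither difference was tested. In Trem2-MKO each member difference was smaller than the 0.424 points that 1 of 236 members makes up. The shortest lists, the scaled pileups and the deepest summits belonged to Trem2-MKO replicates 2 and 3, and their part in the difference was not tested; Trem2-MKO replicate 1, whose list is as long as that of LysM-Cre replicate 2, stood at -0.370 points for members and -4.61 for the proteasome.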

How the results depend on the processing

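Members lay above other genes in all LysM-Cre libraries kept under every alternative run, although LysM-Cre replicate 3 was level with them, at 0.00359 points, at the p limit named next; in Trem2-MKO, 1 of 3 libraries did so with 500 bp windows, 2 of 3 with peaks limited to a −log10 p of at least 5, and 1 of 3 with peaks limited to a −log10 q of at least 2. The distance between the genotypes, 2.69 points, became 3.48 with 2.5 kb windows, 0.818 at the p limit, 1.17 at the q limit, 1.32 with the 4638 strongest peaks and 4.22 without genes that share windows. The members marked in 2 or more libraries, 11, became 23, 6, 3, 4 and 5 in the same order. The members called 3 of 3 against 0 of 3, 2, became 1 with 500 bp windows and 1 with the summit inside the window. With Trem2-MKO replicates 2 and 3 both left out, an alternative chosen after seeing the data, they became 7, since 1 Trem2-MKO library then makes the call. Of these members, 5 met the call in the Trem2-MKO direction, where 806 of all genes (3.90%) did. The log2 ratio of body density, 0.06, became 0.27 at the p limit, 0.57 at the q limit and 0.42 with the strongest peaks. Under each of these limits every LysM-Cre library stood above 0, and Trem2-MKO libraries lay on both sides of 0. Body peaks include peaks that also count at gene ends. The start share of marks, 67.3%, became 80.6% with 500 bp windows, 52.6% with 2.5 kb windows, 92.3% at the q limit, 80% with the strongest peaks and 85.7% without shared windows. Reversals were complex I at -0.340 (p limit), -0.434 (q limit) and -1.05 (shared windows out), and the cytosolic ribosome at 0.231 (summit inside the window) and 0.451 without LysM-Cre replicate 2. The cause of these changes was not tested.

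Leaving out 1 library at a time gave 0.604 to 1.26 points for the mean excess over 6 libraries (0.990 with all), 2.39 to 3.01 for the distance between genotypes, 6 to 10 members in 2 or more libraries, 2 to 4 members called, body ratios of 0.03 to 0.08 and start shares of 59.5% to 78.6%. By machine it gave -0.512 to 0.451 for the cytosolic ribosome, 1.43 to 2.74 for the mitochondrial ribosome, 0.186 to 2.72 for the proteasome and 0.104 to 1.26 for complex I. The count in 2 or more libraries fell to 6 when replicate 1 of either genotype was left out and to 7 without LysM-Cre replicate 3. No paired analysis was possible because the labels do not say that a replicate number means anything shared between the genotypes, and the results come from no test; a replicate block, as the mean of differences by number, gives 2.69 points by construction. Peaks are weak and lists short, so a gene without a peak may still carry the mark.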
